A study of Homo sapiens with 6 samples.

Results

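The genes described here are 49 neighbours at the ends of 2 chromosome arms, 25 at the end of the short arm of chromosome 5 (5p, from CCDC127 to CCT5) and 24 at the end of the long arm of chromosome 16 (16q, from C16orf74 to GALNS). They were selected on their log2 expression in the bone-metastatic line 231BoM-1833 against its parent MDA-MB-231 on these same arrays, where most of them were lower, so the values of that contrast are given as a description. The choice had no threshold on single genes. Of the 18417 gene symbols with a transcript cluster of their own on the array, 47 were members, 23 on 5p and 24 on 16q. AHRR and PDCD6 on 5p were measured only through clusters that they share with another gene, and are left out of the counts.

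Transcripts of 3 related human breast cancer lines were measured on Affymetrix Human Gene 1.0 ST arrays, with 2 arrays for each line and 6 in all. MDA-MB-231 is a widely used triple-negative line, 231BoM-1833 a derivative of it selected for metastasis to bone, and 231BrM-2a a derivative selected for metastasis to brain. In all 3 lines magnetic sorting kept cells without CD24 and with CD44 and ESA, which EPCAM encodes, markers by which breast cancer stem cells are often isolated, so the parental control went through the same sort. Each group is 1 line, the labels call its samples biological replicates without saying whether cultures or sorts were separate, so the p-values rest on the spread within these pairs of arrays, which could be technical only. Values are log2 expression after RMA, 1 per transcript cluster and array. Differences are in log2 units with a standard error (SE) from a limma fit to all 6 arrays, and "called" means an adjusted p under 0.05 after Benjamini-Hochberg adjustment over 21214 clusters with a gene symbol.

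Genes side by side on a chromosome arm need not share a function, but they share their DNA: a gain or loss of a stretch changes the gene dose of every gene in it. Breast cancer lines carry many such rearrangements. The end of 5p, which holds the telomerase gene TERT, is often gained in tumours, and 16q is an arm often lost in breast cancer. DNA copy number was not measured on these arrays. In bulk RNA, fewer cells expressing a gene and less RNA per cell cannot be told apart.

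The sort markers and markers of other cell types were read as a check of the labels. CD44 lay between 11.45 and 12.17 on the 6 arrays, EPCAM between 7.28 and 8.32 and CD24 between 5.76 and 6.49. Both ends of the EPCAM range were 231BoM-1833 arrays, with 8.32 on replicate 1 and 7.28 on replicate 2. The same held for CD24, with 6.49 and 5.76. The mean of the 3 sort markers was 8.99 and 8.29 on these arrays, 8.73 and 8.61 in the parent and 8.50 and 8.53 in the brain line. The bone-line arrays thus differed in the RNA of these markers. VIM, a mesenchymal filament gene, lay between 12.30 and 12.92. The mean level of 5 fibroblast markers was 4.97 and 4.89 on the MDA-MB-231 arrays, 4.75 and 4.83 on those of 231BoM-1833 and 5.53 and 5.65 on those of 231BrM-2a, so it was highest in the brain line. There 3 of the 5 were called higher, PDGFRB by 1.70, DCN by 0.98 and LUM by 0.36, and in the bone line DCN was called lower. The mean of 7 leukocyte markers was 6.21 and 6.23 in the parent, 6.34 and 6.36 in the bone line and 6.06 and 5.999 in the brain line, and that of 5 endothelial markers was 5.81 and 5.78, 5.75 and 5.84, and 5.47 and 5.57. Of these 12, CD14 and KDR were called higher in the bone line, and CD14, PECAM1 and KDR lower in the brain line. No background level came with the values, so the level at which a gene is not expressed is unknown; the part of other cells in the results was not tested. The mean of 14 proliferation genes was 10.17 and 10.15 on the MDA-MB-231 arrays, 10.45 and 10.01 on those of 231BoM-1833 and 10.41 and 10.57 on those of 231BrM-2a. The bone-line arrays thus lay on either side of the parental ones.

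In 231BoM-1833, 12 of the 23 measured 5p members were called lower than in MDA-MB-231 and 0 higher, beside 7.38% of all clusters called lower and 8.43% called higher. Their median difference was -0.40, with a range from -1.05 (LPCAT1) to 0.013 (IRX1), and 22 of 23 were below 0. Of the 24 members on 16q, 11 were called lower and 0 higher, with a median of -0.38 and a range from -1.09 (ZCCHC14) to 0.18 (MAP1LC3B). At an unadjusted p under 0.05 in limma, 0 members of either stretch were higher. The median over all clusters was -0.052. Since this contrast chose the genes, nothing is read from these counts.

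The brain line was not used in the choice, although it is compared with the same MDA-MB-231 arrays. A high parental value lowers both differences, so the choice favoured low values of members here too. There the stretches had different values. On 16q, 11 of 24 members (45.8%) fell in 231BrM-2a and 0 rose, beside 8.59% of all clusters called lower and 10.5% called higher, and the median difference was -0.36. At an unadjusted p under 0.05 in limma, 14 were lower and 0 higher. The share of all clusters at that threshold was not counted, here or for the other unadjusted counts given. On 5p, 3 of 23 (13%) fell (MTRR, ICE1 and MRPL36) and 1 rose (LPCAT1), with a median of -0.082. The median over all clusters was -0.050. No test was made between the stretches.

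The 16q count in the brain line rests on all 4 arrays of the contrast. It was 1 without MDA-MB-231 replicate 1, 2 without MDA-MB-231 replicate 2, 2 without 231BrM-2a replicate 1 and 3 without 231BrM-2a replicate 2, while the share of all clusters called lower dropped to 4.46%, 3.56%, 4.08% and 4%. The 16q median stayed between -0.29 and -0.36 in these fits. It was 5 of 24 when unnamed clusters were tested as well, beside 3.66% of all clusters. The 3 lower calls on 5p were each lost without any 1 of these 4 arrays. Of the 15 calls of members in the brain line, 12 were followed gene by gene, and 0 of them passed in all the fits with an array left out; their limma calls are given below with all 6 arrays.

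Medians were also taken array by array. The bone-line arrays chose the genes, so their low medians are a description. The 2 parental medians mirror each other because the mean of these 2 arrays was subtracted. Against the parental mean of each gene, the 5p members had medians of -0.39 and -0.42 on the bone-line arrays and -0.070 and -0.087 on the brain-line arrays, with the parental arrays at -0.042 and 0.042. The 16q members had -0.35 and -0.40 on the bone-line arrays, -0.31 and -0.35 on the brain-line arrays, and 0.032 and -0.032 on the parental ones. So the 2 arrays of each derivative lay close together. Gene by gene, both brain-line arrays lay below both parental arrays for 17 of 24 members on 16q (70.8%, beside 36.6% of all clusters) and above for 0 (beside 27.2%). On 5p they lay below for 10 of 23 and above for 8.

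**Figure D1:**
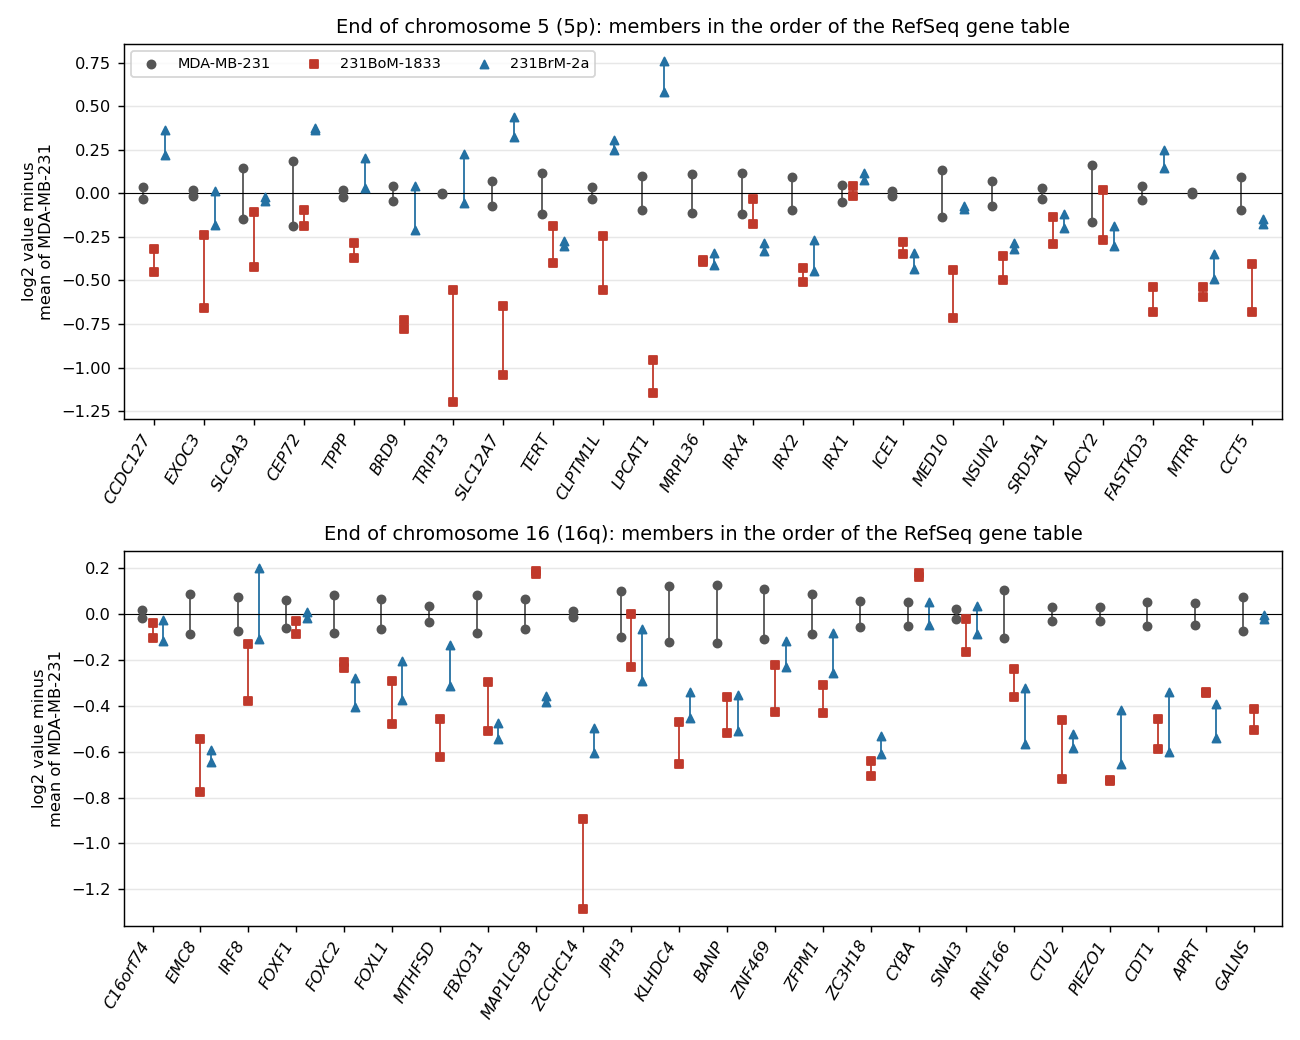
Each measured member on 5p (top) and 16q (bottom) in gene order; the vertical axis is the log2 value of an array minus the MDA-MB-231 mean of that gene, points are arrays and lines join the 2 arrays of a line. Bone-line points (red squares) lie mostly below 0 in both panels; brain-line points (blue triangles) lie on both sides of 0 on 5p, median -0.082, and mostly below 0 on 16q, median -0.36.

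Several members lie head to head with another gene, on opposite strands and with starts so close that their promoter windows overlap. In the RefSeq promoter table of build GRCh38.p14, which gives 250 bases before and 50 after each start, 40 of the 49 members matched, and 8 pairs that include a member shared bases. The values of both genes of a pair are given as a description. The pairs lie in or beside stretches chosen for lower values, and neighbours without a shared window were not compared. For 4 pairs the window of the gene on the plus strand is printed, 5′ to 3′. Capitals mark each GC box, GGGCGG, which SP1-type factors bind. Where the box lies on the minus strand the capitals read CCGCCC. The printed windows are chr5:892634-892933 for TRIP13, paired with BRD9, and chr16:88706253-88706552 for CTU2, paired with RNF166. The others are chr16:87392086-87392385 for MAP1LC3B, paired with FBXO31, and chr16:85799445-85799744 for COX4I1, paired with EMC8. Bases shared with the partner lie between 1 and 300 for TRIP13, over 2 windows of BRD9. They lie between 107 and 300 for CTU2, 1 and 286 for MAP1LC3B and 51 and 300 for COX4I1. GC boxes outside the shared bases are marked too.
TRIP13: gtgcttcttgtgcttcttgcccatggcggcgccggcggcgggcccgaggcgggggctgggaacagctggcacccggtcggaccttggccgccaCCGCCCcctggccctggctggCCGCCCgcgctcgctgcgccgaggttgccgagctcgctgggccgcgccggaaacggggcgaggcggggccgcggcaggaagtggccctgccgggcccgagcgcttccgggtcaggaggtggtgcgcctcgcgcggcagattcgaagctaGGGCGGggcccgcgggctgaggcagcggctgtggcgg
CTU2: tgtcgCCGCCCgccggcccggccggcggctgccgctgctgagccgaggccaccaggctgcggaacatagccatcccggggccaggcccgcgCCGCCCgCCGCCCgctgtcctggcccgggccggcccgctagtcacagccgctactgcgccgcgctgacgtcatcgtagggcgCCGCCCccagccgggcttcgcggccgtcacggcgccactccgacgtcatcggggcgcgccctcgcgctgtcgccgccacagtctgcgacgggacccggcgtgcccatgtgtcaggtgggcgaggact
MAP1LC3B: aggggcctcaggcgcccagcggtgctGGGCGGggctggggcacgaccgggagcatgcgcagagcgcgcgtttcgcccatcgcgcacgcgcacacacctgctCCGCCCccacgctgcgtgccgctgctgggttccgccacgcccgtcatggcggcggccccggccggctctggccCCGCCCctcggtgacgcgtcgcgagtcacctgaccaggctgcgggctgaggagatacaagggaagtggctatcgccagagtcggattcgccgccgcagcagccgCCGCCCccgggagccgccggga
COX4I1: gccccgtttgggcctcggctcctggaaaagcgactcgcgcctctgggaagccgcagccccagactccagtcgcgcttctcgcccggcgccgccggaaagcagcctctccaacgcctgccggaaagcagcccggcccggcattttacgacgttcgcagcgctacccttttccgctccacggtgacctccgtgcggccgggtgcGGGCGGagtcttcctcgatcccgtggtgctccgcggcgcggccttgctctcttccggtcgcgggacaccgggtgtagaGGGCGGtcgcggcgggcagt

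The 4 windows hold 41, 48, 42 and 42 CpG dinucleotides in the order printed, and 3, 4, 4 and 2 GC boxes. Among 27 windows of 23 members on 5p, 85.2% held a GC box and the median CpG count was 38; among 21 windows of 17 members on 16q these were 81.0% and 39. Over all 35116 windows of the table they were 45.0% and 14. With both strands searched, the TATA motif TATAAA was in 0.0% of the 5p and 4.76% of the 16q windows, beside 11.5% of all windows. The CCAAT box was in 22.2% of the 5p and 14.3% of the 16q windows, beside 34.6% of all. The E-box CACGTG was in 14.8% and 9.52%, beside 7.26% of all. A match is a description of the letters, and a window without a motif says nothing about the factor.

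TRIP13, an ATPase that remodels checkpoint proteins in mitosis and meiosis, and BRD9, a bromodomain subunit of a SWI/SNF chromatin remodelling complex, are the 5p pair with the lowest values. TRIP13 (cluster 8104234) stood at 9.39 on each on the MDA-MB-231 arrays, 8.83 and 8.20 on the 231BoM-1833 arrays and 9.33 and 9.62 on the 231BrM-2a arrays. BRD9 (cluster 8110734) stood at 9.34 and 9.43 in the parent, 8.61 and 8.66 in the bone line and 9.18 and 9.43 in the brain line. Both bone-line arrays lay below all other arrays for each gene, and brain-line and parental arrays overlapped. The difference of 231BoM-1833 from MDA-MB-231 was -0.88 ± 0.19 for TRIP13 and -0.75 ± 0.12 for BRD9. For TRIP13 it was -0.56 without 231BoM-1833 replicate 2 and -1.20 without 231BoM-1833 replicate 1, the array with the lower proliferation mean having the lower TRIP13 value; the part of proliferation in it was not tested. In 231BrM-2a the differences were 0.085 ± 0.19 (limma adjusted p = 0.797) and -0.082 ± 0.12 (adjusted p = 0.668), and each changed sign when 1 brain-line array was left out.

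CTU2, an enzyme subunit that thiolates the wobble base of certain tRNAs, and RNF166, a ubiquitin ligase, share 194 bases of window on 16q. CTU2 stood at 8.30 and 8.24 in the parent, 7.81 and 7.55 in the bone line and 7.69 and 7.75 in the brain line. RNF166 stood at 8.20 and 7.99, 7.74 and 7.86 and 7.53 and 7.78 in the same order. All derivative arrays lay below the parental arrays for both genes. In 231BrM-2a CTU2 fell by 0.55 ± 0.12 (adjusted p = 0.0109) and RNF166 by 0.44 ± 0.13 (adjusted p = 0.0402). The bone-line differences were -0.59 ± 0.12 and -0.30 ± 0.13.

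COX4I1, a subunit of cytochrome c oxidase that is no member, shares 250 bases with EMC8, a subunit of the complex that inserts membrane proteins into the endoplasmic reticulum. EMC8 (cluster 8003217) stood at 9.02 and 8.84 in MDA-MB-231, 8.38 and 8.15 in 231BoM-1833 and 8.28 and 8.34 in 231BrM-2a. COX4I1 stood at 9.28 and 9.34, 8.80 and 8.85 and 8.90 and 9.03. For both genes the 4 derivative arrays lay below the parental arrays. In 231BrM-2a EMC8 fell by 0.62 ± 0.12 (adjusted p = 0.00741), 1.54-fold, and COX4I1 by 0.35 ± 0.11 (adjusted p = 0.0494). The bone-line differences were -0.66 ± 0.12 and -0.48 ± 0.11.

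MAP1LC3B and FBXO31 share 286 of their 300 bases and lay on opposite sides of the parent in the bone line. MAP1LC3B encodes LC3B, the ubiquitin-like protein of autophagosome membranes, and FBXO31 is a substrate receptor of a ubiquitin ligase. MAP1LC3B (cluster 7997740) stood at 8.75 and 8.62 in the parent, 8.87 and 8.86 in the bone line and 8.33 and 8.30 in the brain line. FBXO31 stood at 8.33 and 8.16, 7.95 and 7.74 and 7.70 and 7.77. The bone-line arrays thus lay above the parental ones for MAP1LC3B (0.18 ± 0.10) and below them for FBXO31 (-0.40 ± 0.12). In 231BrM-2a both fell, MAP1LC3B by 0.37 ± 0.10 (adjusted p = 0.0355) and FBXO31 by 0.51 ± 0.12 (adjusted p = 0.0167). A further cluster that MAP1LC3B shares with MAP1LC3B2 differed by 0.24 ± 0.13 in the bone line and -0.17 ± 0.13 in the brain line, the latter not called.

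The other 4 pairs were SDHA with CCDC127, IRX2-DT with IRX2, FLJ30679 with MTHFSD, and TRAPPC2L with GALNS. SDHA and CCDC127 differed by 0.22 ± 0.12 and 0.29 ± 0.11 in the brain line and by -0.21 ± 0.12 and -0.38 ± 0.11 in the bone line. The IRX2-DT and IRX2 differences were -0.38 ± 0.10 and -0.47 ± 0.12 in the bone line, and -0.11 ± 0.10 and -0.36 ± 0.12 in the brain line. TRAPPC2L, a trafficking gene just outside the 16q stretch, fell by 0.49 ± 0.11 in 231BrM-2a (adjusted p = 0.0116), while GALNS, a lysosomal sulfatase, differed by -0.012 ± 0.11 (adjusted p = 0.953). In the bone line they differed by -0.68 ± 0.11 and -0.46 ± 0.11. In 231BrM-2a both genes fell in 3 of the 8 pairs, neither was called in 4, and TRAPPC2L alone fell in 1. The 3 pairs lie on 16q, where 45.8% of members fell, so nothing is read from their count. Members without an entry in the promoter table could not appear in a pair.

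**Figure D2:**
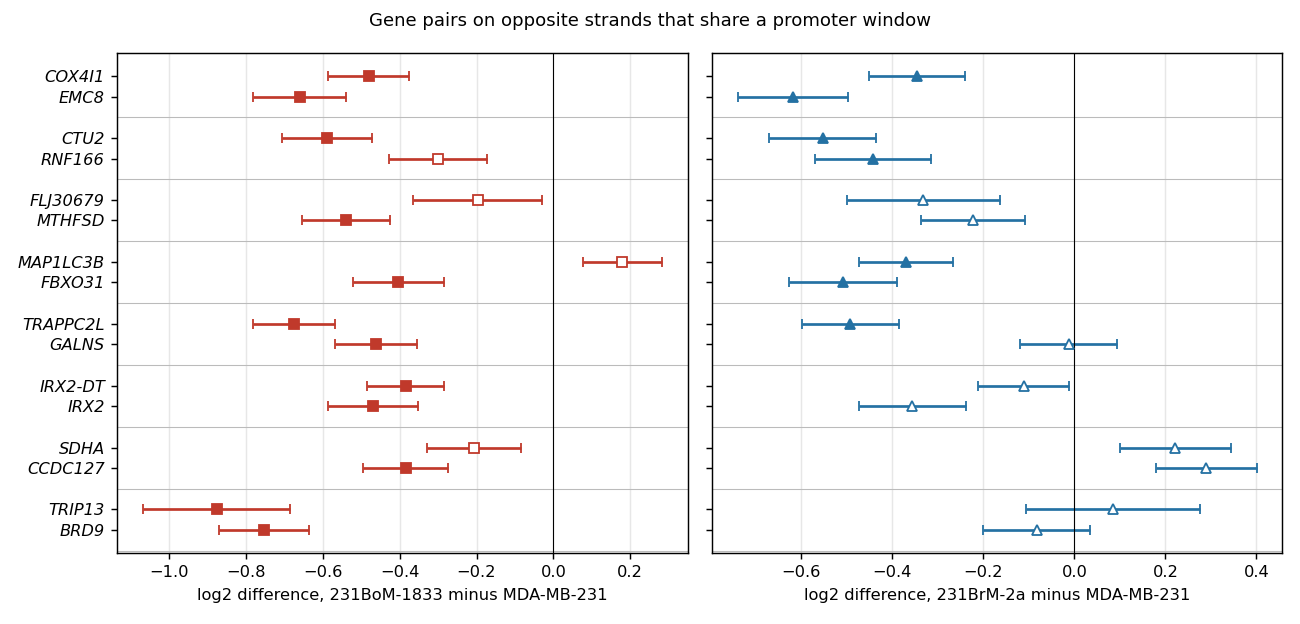
The 8 gene pairs on opposite strands whose promoter windows overlap. The horizontal axis is the log2 difference from MDA-MB-231 in 231BoM-1833 (left) and 231BrM-2a (right). Bars are ±1 SE, and filled symbols are called at an adjusted p under 0.05. MAP1LC3B lies at 0.18 and FBXO31 at -0.40 in the bone line, and GALNS lies at -0.012 beside TRAPPC2L at -0.49 in the brain line.

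On 5p the lowest value in the bone line was that of LPCAT1, an acyltransferase that remodels phosphatidylcholine in membranes. LPCAT1 (cluster 8110841) stood at 9.15 and 8.96 in MDA-MB-231, 8.10 and 7.91 in 231BoM-1833 and 9.64 and 9.81 in 231BrM-2a. The 3 lines did not overlap, with the bone line lowest and the brain line highest. It differed by -1.05 ± 0.12 in the bone line, 2.07-fold lower. In the brain line it rose by 0.67 ± 0.12, 1.59-fold (adjusted p = 0.00593), a call lost without MDA-MB-231 replicate 2 (0.0626) or 231BrM-2a replicate 2 (0.0575). The other metabolic members on 5p were MTRR, the reductase that keeps methionine synthase active, SRD5A1, a steroid reductase, and ADCY2, an adenylyl cyclase. MTRR stood at 10.33 and 10.35 in the parent, 9.74 and 9.80 in the bone line and 9.99 and 9.85 in the brain line, with all derivative arrays below the parent. It fell by 0.42 ± 0.11 in 231BrM-2a (adjusted p = 0.0233), beside -0.57 ± 0.11 in 231BoM-1833. SRD5A1 and ADCY2 differed by -0.22 ± 0.11 and -0.13 ± 0.14 in the bone line and -0.16 ± 0.11 and -0.25 ± 0.14 in the brain line, and neither was called. Without 1 parental array the bone-line difference of ADCY2 was -0.29 or 0.038. ADCY2 was dim, with a mean below 6.26, a limit under which 7072 of the 21214 clusters lay.

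Of the 3 membrane proteins of 5p, SLC12A7 was called lower in the bone line, and none was called in the brain line. Of all clusters 7.38% were called lower in the bone line and 19% in either direction in the brain line. Nothing is read from these counts, since the bone-line contrast chose the genes. SLC12A7, a potassium and chloride cotransporter, stood at 7.37 and 7.51 in MDA-MB-231, 6.40 and 6.79 in 231BoM-1833 and 7.88 and 7.76 in 231BrM-2a. CLPTM1L, a membrane protein beside TERT, stood at 10.82 and 10.75, 10.23 and 10.54 and 11.03 and 11.09 in the same order. For both genes the bone-line arrays were lowest and the brain-line arrays highest, without overlap. SLC12A7 (cluster 8110755) differed by -0.84 ± 0.14 in the bone line, -0.65 without replicate 1 of that line and -1.04 without replicate 2, and by 0.38 ± 0.14 in the brain line (adjusted p = 0.0977). CLPTM1L differed by -0.40 ± 0.12 in the bone line, not called, and by 0.28 ± 0.12 in the brain line (adjusted p = 0.153). SLC9A3, a sodium and proton exchanger, was also below 6.26 and differed by -0.27 ± 0.14 and -0.031 ± 0.14.

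Telomere, centrosome and chromatin genes of 5p are TERT and CEP72 beside TRIP13 and BRD9. TERT, the catalytic subunit of telomerase, stood at 7.21 and 7.45 in the parent, 7.14 and 6.93 in the bone line and 7.02 and 7.06 in the brain line. Both derivatives lay below the parent on all arrays and overlapped with each other, with differences of -0.29 ± 0.12 and -0.29 ± 0.12 (adjusted p in the brain line 0.141). CEP72, a protein of centriolar satellites, stood at 7.94 and 7.57, 7.66 and 7.57 and 8.13 and 8.11. Its bone-line arrays overlapped with the parent (-0.14 ± 0.13), and its brain-line arrays lay above it (0.37 ± 0.13, adjusted p = 0.0872).

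All 3 RNA and translation genes of 5p were called lower in the bone line, and 1 of them in the brain line. Of all clusters 7.38% and 8.59% were called lower there. The bone-line contrast chose the genes, so nothing is read from this count. NSUN2, which methylates cytosines in tRNA and other RNA, stood at 10.79 and 10.94 in the parent, 10.50 and 10.37 in the bone line and 10.57 and 10.54 in the brain line. MRPL36, a protein of the mitochondrial ribosome, stood at 10.995 and 11.22, 10.72 on each and 10.76 and 10.69. FASTKD3, a mitochondrial protein that acts on the RNA of that organelle, stood at 6.75 and 6.67, 6.18 and 6.03 and 6.86 and 6.96. The brain-line arrays lay below the parent for NSUN2 and MRPL36 and above it for FASTKD3. Bone-line differences were -0.43 ± 0.11, -0.39 ± 0.11 and -0.61 ± 0.11. In 231BrM-2a MRPL36 fell by 0.38 ± 0.11 (adjusted p = 0.0468), a call lost with the mean of its 2 clusters (0.0556), and NSUN2 and FASTKD3 differed by -0.30 ± 0.11 (adjusted p = 0.0868) and 0.20 ± 0.11 (adjusted p = 0.246). The dimmer MRPL36 cluster differed by -0.58 ± 0.11 in the bone line and -0.28 ± 0.11 in the brain line.

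Of 5 transcription regulators on 5p, MED10 and IRX2 were called lower in the bone line and ICE1 fell in the brain line. Of all clusters 7.38% and 8.59% were called lower there. Nothing is read from these counts, since the bone-line contrast chose the genes. MED10, a subunit of the Mediator complex, stood at 9.38 and 9.65 in MDA-MB-231, 9.08 and 8.80 in 231BoM-1833 and 9.45 and 9.43 in 231BrM-2a, so that only the bone line lay apart. ICE1, a scaffold of the little elongation complex that serves small nuclear RNA genes, stood at 8.82 and 8.79, 8.52 and 8.45 and 8.46 and 8.37. Both derivatives lay below the parent for ICE1, which fell by 0.39 ± 0.10 in the brain line (adjusted p = 0.0284) beside -0.31 ± 0.10 in the bone line. MED10 differed by -0.58 ± 0.13 in the bone line and -0.079 ± 0.13 in the brain line. With an array left out, its bone-line difference ran from -0.71 to -0.44. The Iroquois homeobox genes IRX2, IRX4 and IRX1 lie side by side and differed by -0.47 ± 0.12, -0.10 ± 0.12 and 0.013 ± 0.10 in the bone line and by -0.36 ± 0.12, -0.31 ± 0.12 and 0.10 ± 0.10 in the brain line. The bone-line difference of IRX4 was -0.22 without MDA-MB-231 replicate 1 and 0.014 without replicate 2. IRX1, with 6.82 and 6.92, 6.92 and 6.86 and 6.99 and 6.95, was the member of 5p whose bone-line mean was not below the parent.

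The remaining 5p members handle proteins or have no named group here. CCT5 is a subunit of the TRiC chaperonin that folds actin and tubulin. It stood at 11.56 and 11.75 in the parent, 11.25 and 10.97 in the bone line and 11.48 and 11.51 in the brain line. Its differences were -0.54 ± 0.13 in the bone line and -0.16 ± 0.13 in the brain line (limma adjusted p = 0.406). With an array left out, the bone-line difference of CCT5 ran from -0.68 to -0.40. The exocyst subunit EXOC3, which tethers secretory vesicles, stood at 8.72 and 8.75, 8.08 and 8.49 and 8.75 and 8.55, and TPPP, a tubulin-binding protein, at 6.91 and 6.96, 6.56 and 6.65 and 7.14 and 6.97. CCDC127 stood at 8.93 and 8.86, 8.57 and 8.44 and 9.11 and 9.25. For EXOC3, TPPP and CCDC127 the bone line lay below the parent (-0.45 ± 0.15, -0.33 ± 0.11 and -0.38 ± 0.11), and none was called in the brain line (-0.084 ± 0.15, 0.12 ± 0.11 and 0.29 ± 0.11). The cluster shared by AHRR and PDCD6 differed by -0.41 ± 0.14 in the bone line and -0.11 ± 0.14 in the brain line, and the cluster shared by PDCD6 and its pseudogene PDCD6P1 by -0.28 ± 0.12 and 0.22 ± 0.12.

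**Figure D3:**
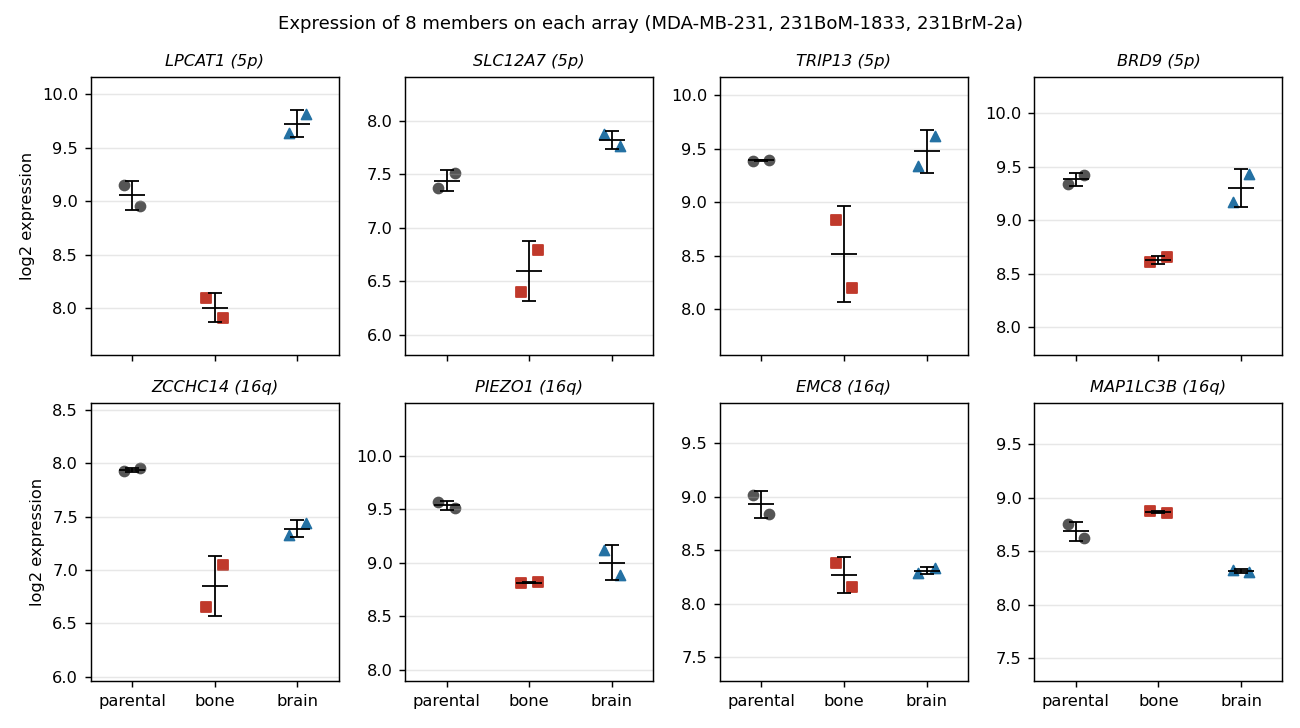
Log2 expression of 4 members on 5p (top) and 4 on 16q (bottom) on each array, with bars for the mean ± SD of the 2 arrays of a line; the axes do not start at 0. LPCAT1 and SLC12A7 are lowest in the bone line and highest in the brain line, EMC8 and PIEZO1 are lower in both derivatives than in the parent, and MAP1LC3B is lower only on the brain-line arrays.

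On 16q the lowest bone-line value was that of ZCCHC14, a zinc finger protein. ZCCHC14 (cluster 8003263) stood at 7.92 and 7.95 in MDA-MB-231, 6.65 and 7.05 in 231BoM-1833 and 7.33 and 7.44 in 231BrM-2a. The lines did not overlap, and the brain line lay between the others. It differed by -1.09 ± 0.14 in the bone line, 2.13-fold lower, and fell by 0.55 ± 0.14 in the brain line (limma adjusted p = 0.023). With an array left out, its bone-line difference ran from -1.28 to -0.89.

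Among the 16q membrane genes, PIEZO1, a mechanically gated cation channel, stood beside EMC8 in being lower in both derivatives. PIEZO1 (cluster 8003357) stood at 9.57 and 9.51 in the parent, 8.81 and 8.82 in the bone line and 9.12 and 8.88 in the brain line. It fell by 0.54 ± 0.11 in 231BrM-2a (adjusted p = 0.0109) and differed by -0.72 ± 0.11 in 231BoM-1833. Its other cluster differed by -0.67 ± 0.12 and -0.81 ± 0.12. CYBA, the membrane subunit p22phox of NADPH oxidases, stood at 8.39 and 8.29, 8.50 and 8.52 and 8.39 and 8.29. Its bone-line arrays lay above the parent (0.17 ± 0.10, not called) and its brain-line arrays overlapped with it; the brain-line difference of 0.0035 ± 0.10 had no stable sign, at -0.038 after a further quantile normalization and -0.024 with the arrays centred. JPH3, a junctophilin, was below the same limit of 6.26 and differed by -0.12 ± 0.13 and -0.18 ± 0.13.

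The DNA replication, RNA and chromatin members of 16q were called lower in both derivatives. CDT1, which loads the replicative helicase onto origins, stood at 8.40 and 8.30 in the parent, 7.89 and 7.76 in the bone line and 7.74 and 8.01 in the brain line. ZC3H18, a zinc finger protein that links capped RNA to the exosome, stood at 9.68 and 9.57, 8.92 and 8.98 and 9.09 and 9.01. BANP, a nuclear DNA-binding protein, stood at 7.48 and 7.73, 7.08 and 7.24 and 7.09 and 7.25. For each of the 3 genes all derivative arrays lay below the parental arrays. In 231BrM-2a CDT1 fell by 0.47 ± 0.12 (adjusted p = 0.027), ZC3H18 by 0.57 ± 0.11 (adjusted p = 0.00564) and BANP by 0.43 ± 0.13 (adjusted p = 0.0423). The bone-line differences were -0.52 ± 0.12, -0.67 ± 0.11 and -0.44 ± 0.13. Of 14 proliferation genes 1 was called lower (PCNA, -0.75 ± 0.20) and 3 higher in the bone line, beside 7.38% and 8.43% of all clusters. In the brain line 0 were called lower and 4 higher, beside 8.59% and 10.5%. The bone-line arrays differed in the mean of these genes, at 10.45 and 10.01. The part of proliferation in the CDT1 values was not tested.

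None of the 7 transcription regulators of 16q was called in either derivative by limma, beside 15.8% and 19% of all clusters. At an unadjusted p under 0.05, 3 were lower in the bone line and 2 in the brain line, and 0 were higher. The share of all clusters at that threshold was not counted. IRF8, a myeloid and lymphoid factor, stood at 5.16 and 5.31 in MDA-MB-231, 5.11 and 4.86 in 231BoM-1833 and 5.13 and 5.44 in 231BrM-2a, with a mean below 6.26. FOXC2, a forkhead factor of mesenchyme and vessels, stood at 7.54 and 7.70, 7.41 and 7.38 and 7.34 and 7.21, with both derivatives below the parent. The differences of FOXC2 were -0.22 ± 0.11 in the bone line and -0.34 ± 0.11 in the brain line (adjusted p = 0.0606). Its neighbours FOXF1 and FOXL1 differed by -0.059 ± 0.10 and -0.39 ± 0.12 in the bone line and by -0.0041 ± 0.10 and -0.29 ± 0.12 in the brain line. ZNF469, ZFPM1 and SNAI3 differed by -0.32 ± 0.12, -0.37 ± 0.12 and -0.10 ± 0.11 in the bone line and by -0.17 ± 0.12, -0.17 ± 0.12 and -0.025 ± 0.11 in the brain line.

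Of the enzymes of 16q, GALNS and MTHFSD were called lower in the bone line and APRT fell in the brain line. APRT, the adenine salvage enzyme, stood at 8.74 and 8.84 in the parent, 8.45 on each in the bone line and 8.25 and 8.40 in the brain line, where it fell by 0.47 ± 0.11 (adjusted p = 0.0157). GALNS stood at 8.999 and 8.85, 8.42 and 8.51 and 8.90 and 8.92, with only the bone line below the parent. MTHFSD, named for a folate cycle domain, stood at 7.60 and 7.53, 6.94 and 7.11 and 7.43 and 7.25, and differed by -0.54 ± 0.11 and -0.22 ± 0.11 (adjusted p = 0.214). KLHDC4, a kelch domain protein, differed by -0.56 ± 0.12 in the bone line and -0.40 ± 0.12 in the brain line (adjusted p = 0.0554), and C16orf74 by -0.073 ± 0.10 and -0.073 ± 0.10. Over the 4 protein handling members of 16q (FBXO31, MAP1LC3B, KLHDC4 and RNF166), 2 were called lower in the bone line and 3 in the brain line. Of all clusters 7.38% and 8.59% were called lower there. The bone-line contrast chose the genes and the brain line has the same parental arrays, so nothing is read from these counts.

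Between the derivatives, 10 of 23 members on 5p were called higher in 231BrM-2a than in 231BoM-1833 and 0 lower, beside 12.5% and 11% of all clusters, with a median difference of 0.36. On 16q 2 of 24 were called higher (ZCCHC14, 0.54 ± 0.14, and GALNS, 0.45 ± 0.11) and 1 lower (MAP1LC3B, -0.55 ± 0.10), with a median of 0.053. The largest differences on 5p were those of LPCAT1 (1.72 ± 0.12), SLC12A7 (1.22 ± 0.14) and TRIP13 (0.96 ± 0.19). This contrast shares the bone-line arrays on which the genes were chosen for low values, so it has no p here and nothing is read from its counts.

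The genes around the members show how far along each arm such values went. Gene order was taken from the RefSeq gene table, for order only. Within the 5p stretch 16 measured genes are no members. In the bone line 5 (31.2%) were called lower and 0 higher, beside 7.38% and 8.43% of all clusters. Their bone-line median was -0.17, where that of the 5p members was -0.40. In the brain line 0 fell and 1 rose, with a median of -0.11. ATPSCKMT, a lysine methyltransferase for an ATP synthase subunit, stood at 7.66 and 7.58 in the parent, 6.84 and 6.74 in the bone line and 7.35 and 7.29 in the brain line. TENT4A, a noncanonical poly(A) polymerase, stood at 8.70 and 8.49, 7.91 and 7.86 and 8.58 and 8.60, and SLC9A3-OT1, a noncoding transcript, at 7.87 and 8.17, 7.44 and 7.17 and 8.11 and 8.02. For all 3 the bone-line arrays were lowest, by -0.83 ± 0.10, -0.71 ± 0.11 and -0.71 ± 0.14. ZDHHC11, a palmitoyltransferase, rose by 1.29 ± 0.17 in the brain line (adjusted p = 0.00112).

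Beyond the 5p stretch, only PLEKHG4B and LRRC14B lie towards the chromosome end among measured genes, with bone-line differences of -0.16 ± 0.12 and -0.42 ± 0.14, neither called. Towards the centromere the nearest genes CMBL, MARCHF6 and ROPN1L differed by -0.44 ± 0.13, -0.088 ± 0.11 and -0.048 ± 0.12 in the bone line and by 0.19 ± 0.13, 0.0034 ± 0.11 and 0.34 ± 0.12 in the brain line. The bone-line difference of ROPN1L was -0.18 without 231BoM-1833 replicate 1 and 0.087 without replicate 2. Of the next 20 genes there, 5 were called lower and 2 higher in the bone line, and 3 fell and 0 rose in the brain line. Over the other 721 measured genes of chromosome 5, 6.66% were called lower in the bone line and 11.1% in the brain line.

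Around the 16q stretch the lower values of both derivatives went on in both directions. The 12 measured genes inside it that are no members had 1 lower call in the bone line (COX4I1), 8.33% beside 7.38% of all clusters. Their bone-line median was -0.17, where that of the 16q members was -0.38. In the brain line 3 of these 12 fell (COX4I1, MVD and ZC3H18-DT), beside 8.59% of all clusters, with a median of -0.25. Towards the chromosome end, 8 of the next 20 genes (40%) fell in 231BrM-2a and 1 rose (CPNE7), with a median of -0.30, and 8 were called lower and 0 higher in 231BoM-1833, with a median of -0.34. Towards the centromere 4 of 20 fell and 1 rose in the brain line, with a median of -0.25, and 5 were called lower and 0 higher in the bone line, with a median of -0.31. TRAPPC2L, CBFA2T3 and ACSF3, the nearest on the outer side, fell in the brain line by 0.49 ± 0.11, 0.39 ± 0.10 and 0.47 ± 0.13 (adjusted p = 0.0116, 0.0312 and 0.0324). On the inner side GSE1 and LINC00311 fell by 0.43 ± 0.10 and 0.41 ± 0.12 (adjusted p = 0.0159 and 0.048), and GINS2, a replication factor, differed by -0.29 ± 0.10 (adjusted p = 0.0815). The choice of members did not use the brain line or these outer genes, but both derivatives are compared with the same MDA-MB-231 arrays. Over the other 683 measured genes of chromosome 16, 15.1% were called lower in the bone line and 7.91% in the brain line. With the replicate number as a block, 11 in place of 18 of all the neighbours of both stretches fell in the brain line.

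A running median along each arm, and blocks of 20 genes with a mean above 6.26, counted from the chromosome end, were chosen after the values had been seen. On chromosome 5 the first block, PLEKHG4B to IRX2-DT, had a median bone-line difference of -0.39 with 20 of 20 genes below 0, and a brain-line median of 0.013. The next block, from IRX1 inwards, had -0.37 and -0.054. The third and the fourth blocks had bone-line medians of -0.16 and -0.22, and the fifth, from HMGCS1 to PLPP1, 0.14. Over this and the other blocks further along, 21 in all, bone-line medians ran from -0.18 to 0.17 and 13 were below 0. On chromosome 16 the outermost 5 blocks, from DRC4 at the end to DHODH, had bone-line medians of -0.36, -0.36, -0.33, -0.30 and -0.49 and brain-line medians of -0.23, -0.38, -0.34, -0.23 and -0.41. The sixth, from IST1 inwards, had -0.079 and 0.081. The lower values did not end there: of the 24 blocks from the sixth to the other end of the chromosome, all 24 had bone-line medians below 0, from -0.28 to -0.00085, where the median over all clusters was -0.052, and 21 had brain-line medians below 0, in a range from -0.16 to 0.10. The members of 16q lie in the second and the third of these blocks, and the fifth block, with 19 of 20 genes below 0 in each derivative, had the lowest medians of the 6 in both.

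**Figure D4:**
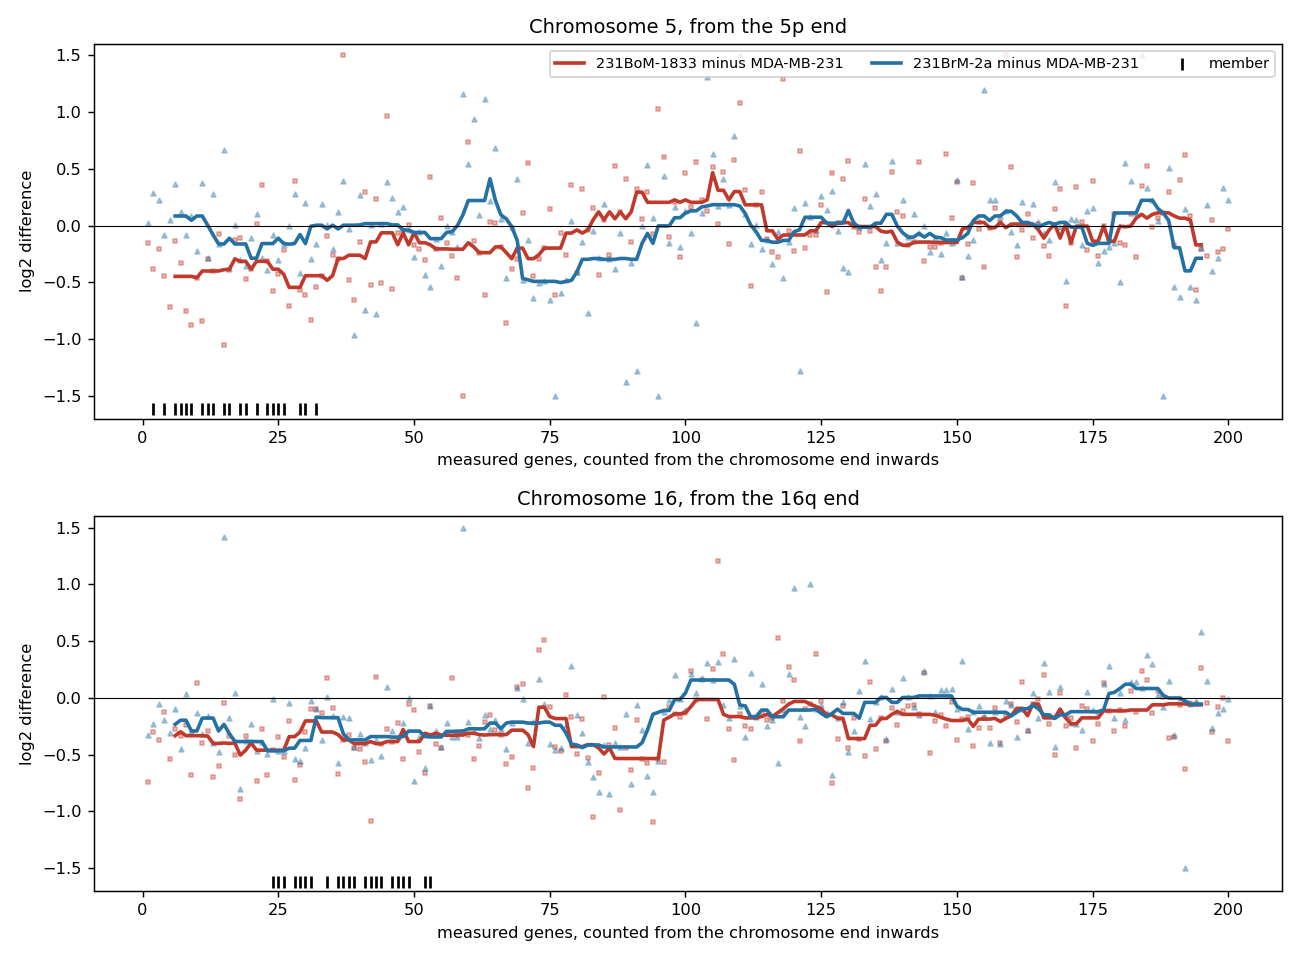
Log2 difference from MDA-MB-231 of each measured gene with a mean above 6.26 (points) along chromosome 5 (top) and 16 (bottom), counted from the chromosome end, with a running median over 11 genes (lines) and ticks for members; points beyond 1.5 are drawn at the edge. The bone-line median (red) is below 0 at both ends, with first-block medians of -0.39 on 5p and -0.36 on 16q; the brain-line median (blue) has a first-block median of 0.013 at the 5p end and block medians of -0.23 to -0.41 over the outermost 5 blocks of 16q.

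Partners of member proteins, in complexes or pathways, were read from 8 lists with 95 measured genes. In the bone line 13 were called lower (13.7%, beside 7.38% of all clusters) and 5 higher (beside 8.43%). In the brain line 11 fell (11.6%, beside 8.59%) and 9 rose (9.47%, beside 10.5%), shares near those of all clusters. Of the 95 genes, 8 lie on chromosomes 5 and 16 themselves (NHP2, MED7, TERF2, TERF2IP, ACD, ORC6, BCL7C and NOXO1), and over the other 87 the counts were 11 lower and 4 higher in the bone line and 10 falls and 9 rises in the brain line. Of 14 origin licensing partners of CDT1, 5 were called lower in the bone line: MCM2, MCM3, MCM4 and MCM5, subunits of the replicative helicase, and ORC5. MCM3 stood at 10.53 and 10.48 in the parent, 10.04 and 9.56 in the bone line and 9.99 and 10.16 in the brain line. On the bone-line arrays MCM2 stood at 9.03 and 8.70, MCM4 at 9.50 and 8.97 and MCM5 at 9.26 and 8.96, each lower on replicate 2, the array with the proliferation mean of 10.01 against 10.45. The bone-line difference of MCM3 was -0.95 without replicate 1 of that line and -0.47 without replicate 2; the part of proliferation in it was not tested. The list had 1 fall (CDC6, -0.47 ± 0.13, adjusted p = 0.0315) and 2 rises (ORC2, 0.73 ± 0.10, adjusted p = 0.00157, and ORC4, 0.69 ± 0.11, adjusted p = 0.00294) in the brain line.

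For CCT5, the other 7 TRiC subunits, which form 1 ring with it, had 0 calls by limma in the bone line (3 lower at an unadjusted p under 0.05), with a median of -0.22 and all 7 below 0, and in the brain line CCT4 fell by 0.36 ± 0.11 (adjusted p = 0.0485). Of 12 telomerase and shelterin partners of TERT, TERC, the template RNA, was called higher in the bone line (0.43 ± 0.12) and TERF2IP lower (-0.53 ± 0.11); DKC1 and TERF2IP fell in the brain line by 0.64 ± 0.11 and 0.57 ± 0.11 (adjusted p = 0.00416 and 0.00865). TERF2IP itself lies on 16q. The 11 SWI/SNF partners of BRD9 had 3 lower calls in the bone line (SMARCC1, SMARCD1 and BCL7C), and in the brain line 2 fell (BICRAL and BCL7B) and 1 rose (SMARCA2, 0.59 ± 0.14), a difference of 0.39 and no call without MDA-MB-231 replicate 2.

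The other lists had few calls or calls in both directions. Of 25 measured Mediator partners of MED10, 4 were called lower and 2 higher in the bone line, and in the brain line MED4, MED14 and MED31 rose by 1.02 ± 0.15, 0.85 ± 0.11 and 0.73 ± 0.16 (adjusted p = 0.00186, 0.000817 and 0.0125) while MED19 fell by 0.37 ± 0.11 (adjusted p = 0.0398). Of 9 EMC partners of EMC8, MMGT1 was higher in the bone line (0.54 ± 0.10) and fell in the brain line by 0.60 ± 0.10 (adjusted p = 0.00371), and EMC9 rose there by 0.44 ± 0.13 (adjusted p = 0.0468). The EMC9 difference was 0.26 without MDA-MB-231 replicate 2, and its call was lost there and without either brain-line array. Among 8 exocyst partners of EXOC3, 1 was called higher in the bone line, and in the brain line EXOC2 and EXOC6 fell and EXOC4 and EXOC8 rose; the EXOC6 difference ran from -0.90 to -0.38 with an array left out, the latter without 231BrM-2a replicate 2 and not called. The 9 measured NADPH oxidase partners of CYBA had 0 calls by limma in the bone line (2 lower at an unadjusted p under 0.05) and 1 fall in the brain line, RAC1 (-0.36 ± 0.10, adjusted p = 0.0333).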

How the data were processed

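The authors deposited a log2 value for each transcript cluster on each array, made with RMA (background correction, quantile normalization across arrays, summary of the probes of a cluster) in Affymetrix Expression Console, per the labels and the submitters' processing notes; the version and the genome build are not given in the sources used here. The arrays were put on 1 scale, so a change in total RNA would not show. The table held 33297 clusters; platform annotation named 21214, of which 19460 had 1 symbol and 1754 several.

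Genes were named from clusters with 1 symbol, the brightest over 6 arrays where a symbol had more. In limma 3.58.1 (R 4.3.3), lmFit and eBayes fitted a mean per line over all 6 arrays together (3 residual and 6.06 prior degrees of freedom), two-sided, with Benjamini-Hochberg adjustment over 21214 clusters. The script was tested on simulated data. Promoters were searched with Python 3.11.15.

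The members, lists and naming rule (the 8 lowest and 3 highest members per stretch in the bone line, up to 6 brain-line calls per stretch and direction, well-known members, the 3 nearest neighbours, up to 4 called genes inside, 2 partners per list) were chosen with earlier results of these data known; names beyond the rule were added after their values were seen. Replicate numbers were not used as pairs in the main fit, and the labels do not say whether they pair the samples. The number of arrays limits the precision, and levels below which a gene is not expressed are unknown. Alternatives were normalization, centring, filters, clusters tested, arrays in the fit, moderation and each array left out.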

Additional observations from a re-analysis of the deposited data

Results flagged for a closer look

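For 7 members both arrays of one derivative lay above both MDA-MB-231 arrays and both arrays of the other lay below them. The share of all clusters with this pattern was not counted, so nothing is read from the count of 7. For a single derivative such separation was common. Both bone-line arrays lay below both parental arrays for 35.7% of all clusters and above them for 24.1%. For the brain line these shares were 36.6% and 27.2%. The difference between the derivatives was not tested, because it uses the bone-line arrays on which the members were chosen. A low bone-line value was favoured by that choice. On 5p the 6 members were higher in the brain line and lower in the bone line, and 231BrM-2a minus 231BoM-1833 was 1.72 for LPCAT1, 1.22 for SLC12A7, 0.81 for FASTKD3, 0.68 for CLPTM1L, 0.67 for CCDC127 and 0.45 for TPPP (log2). On 16q MAP1LC3B went the other way, at -0.55.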

How the results depend on the processing

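The medians kept their sign in every fit for the comparisons with MDA-MB-231. After a further quantile normalization the 5p median in the bone line was -0.45, the 16q median in the brain line -0.40 and the 16q median between the derivatives 0.0097. With the arrays centred, the median between the derivatives was 0.31 on 5p and -0.0013 on 16q. With all 33297 clusters tested, lower calls in the bone line were 5 on 5p and 6 on 16q, and in the brain line 0 on 5p, 5 on 16q and 8 among neighbours; calls among partners were 6 in the bone line and 9 in the brain line, and higher calls between the derivatives on 16q were 1. More clusters in the adjustment and the lower shares of all clusters called go with these counts. In fits of only the 4 arrays compared, higher calls on 5p in the brain line were 2. The labels do not say whether replicate numbers pair the samples. Correlations between lines of the deviations of replicates were 0.036, -0.16 and -0.17. With 1 difference per line they cannot exclude a shared batch. With the replicate block, lower calls among neighbours in the brain line were 11, and those of members in the brain line were 9 on 16q and 2 on 5p.

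Leaving out each array in turn, lower calls in the bone line ranged from 3 to 9 on 5p, from 3 to 9 on 16q and from 7 to 22 among neighbours, and partner calls from 2 to 16. In the brain line, lower calls ranged from 0 to 3 on 5p, from 1 to 12 on 16q and from 5 to 22 among neighbours, higher calls on 5p from 0 to 2, and partner calls from 7 to 25. Between the derivatives, higher calls on 16q ranged from 0 to 2. The 5p medians ranged from -0.46 to -0.37 in the bone line, -0.18 to -0.040 in the brain line and 0.24 to 0.39 between the derivatives; the 16q medians from -0.36 to -0.29 in the brain line and 0.030 to 0.10 between the derivatives. Without a parental array the remaining one is assumed to vary like the other lines.

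Differences near 0 in the brain line changed sign: with a further quantile normalization CYBA was at -0.038, FOXF1 at 0.017 and MARCHF6 at -0.025, and with centring CYBA was at -0.024, PLEKHG4B at -0.0035 and MARCHF6 at -0.024. With an array left out, the ranges were -0.065 to 0.057 for FOXF1, -0.11 to 0.20 for IRF8, -0.079 to 0.13 for PLEKHG4B, -0.10 to 0.20 for SLC9A3-OT1, -0.11 to 0.099 for TENT4A, -0.21 to 0.057 for MED10, -0.050 to 0.057 for CYBA, -0.062 to 0.068 for MARCHF6, -0.075 to 0.023 for BCL7C, -0.21 to 0.044 for BRD9 and -0.056 to 0.23 for TRIP13. In the bone line, uncalled differences that crossed 0 with an array left out were those of IRX1 (-0.037 to 0.063), IRX4 (-0.22 to 0.014), ADCY2 (-0.29 to 0.038), FOXF1 (-0.12 to 0.0022), ROPN1L (-0.18 to 0.087), EXOC6 (-0.21 to 0.049) and MED14 (-0.12 to 0.042), and ZDHHC11 ran from -0.56 to -0.037. Of 21 other named genes called in the brain line, 6 passed in all the fits with an array left out (DKC1, MED14, MED4, MMGT1, ORC2 and ZDHHC11). The cause was not tested.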

Other observations

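Some genes next to the members moved against their neighbours or by far more; they were named after their values were seen. CRISPLD2, a secreted protein gene towards the centromere from the 16q stretch, stood at 5.56 and 5.69 in MDA-MB-231, 5.35 and 5.30 in 231BoM-1833 and 9.36 and 9.64 in 231BrM-2a, and rose by 3.87 ± 0.12 in the brain line (limma adjusted p = 5.33e-07) among neighbours with a median of -0.25. CPNE7, a copine, stood at 6.89 and 6.96, 6.90 and 6.86 and 8.49 and 8.20, and rose by 1.42 ± 0.12 there (adjusted p = 9.91e-05). On 5p OTULINL stood at 6.87 and 6.35 in the parent, 9.85 and 9.59 in the bone line and 7.01 on each in the brain line, a bone-line difference of 3.11 ± 0.17, while OTULIN, the deubiquitinase gene beside it, differed by -0.48 ± 0.14.

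Further inwards on 5p, 3 genes fell in the brain line. ANKH, a membrane exporter linked to pyrophosphate and mineralisation, fell by 0.96 ± 0.10 (adjusted p = 0.000282), MYO10, the filopodial myosin, by 0.78 ± 0.11 (adjusted p = 0.00137) and FBXL7 by 0.74 ± 0.13 (adjusted p = 0.00377). In the bone line ANKH differed by -0.66 ± 0.10, MYO10 by 0.24 ± 0.11 and FBXL7 by 0.30 ± 0.13. On the outer side of 16q, ANKRD11, a chromatin regulator, stood at 9.53 and 9.45 in the parent, 8.48 and 8.72 in the bone line and 8.84 and 8.54 in the brain line, and fell by 0.80 ± 0.14 in the latter (adjusted p = 0.00386).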
